A study of Mus musculus with 8 samples.

Results

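Scavenger and mannose receptors are membrane proteins with which macrophages and microglia bind and take up modified lipoproteins, sugars, bacteria, dead cells and protein aggregates. The genes described here are Msr1, Marco, Cd36, Scarb1, Olr1, Mrc1, Stab1 and Cd163, chosen by name. All 8 were found among the 52636 genes of the count table. Primary murine microglia (C57BL/6, wild type, from C57BL/6N pups according to the methods) were taken by shake-off from mixed glial cultures of neonatal brain and kept in medium with serum and CSF-1, so both groups grew with this survival factor. Treatment lasted 24 h, with LPS (lipopolysaccharide of bacterial walls, a potent activator of microglia) at 5 µg/ml or with vehicle, and mRNA was sequenced from 4 libraries per group, labelled as biological replicates 1 to 4. Nothing states which animals or culture plates a replicate came from, so p-values measure the spread between these libraries.

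The receptors fall into classes by their structure. Msr1 and Marco are class A receptors, trimers with a collagen-like stalk that bind polyanions, LPS and whole bacteria. Cd36 and Scarb1 are class B receptors, hairpins with a pair of membrane spans that handle lipids, and Olr1 is a lectin-like receptor of oxidized LDL. Mrc1, the mannose receptor CD206, and the haemoglobin-haptoglobin receptor Cd163 are widely used as markers of resting, perivascular and IL-4- or IL-10-treated macrophages, and Stab1 clears acetylated LDL and remnants of cells and matrix.

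After LPS the class A receptors rose, Msr1 5.19-fold and Marco 4.59-fold, while Mrc1 fell 16.7-fold, Stab1 4.72-fold and Scarb1 2.24-fold. Cd36 and Olr1 did not pass the test, and Cd163 was too low to be tested. The test was edgeR's quasi-likelihood F-test, fitted to 13847 genes, with Benjamini-Hochberg adjusted p-values and a threshold of 0.05. Of the 7 receptors tested, 2 were higher and 3 were lower. Over all tested genes 64.1% passed this threshold, 30.3% higher and 33.8% lower, so a call by itself does not set a receptor apart. All 5 of these receptors also had groups of libraries that did not overlap and changes of at least 1 on the log2 scale. Over all tested genes the groups did not overlap for 60.2%, 28.8% higher and 31.4% lower after LPS, and 37.7% passed the test with a change of at least 1 on the log2 scale. Of all tested genes, 5.60% rose at least as much as Msr1 and 6.25% at least as much as Marco, while 1.97% fell at least as much as Mrc1, 7.52% as Stab1 and 20.9% as Scarb1. The median log2 fold change was 0.12 over the 7 receptors and −0.11 over all tested genes.

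**Figure D1:**
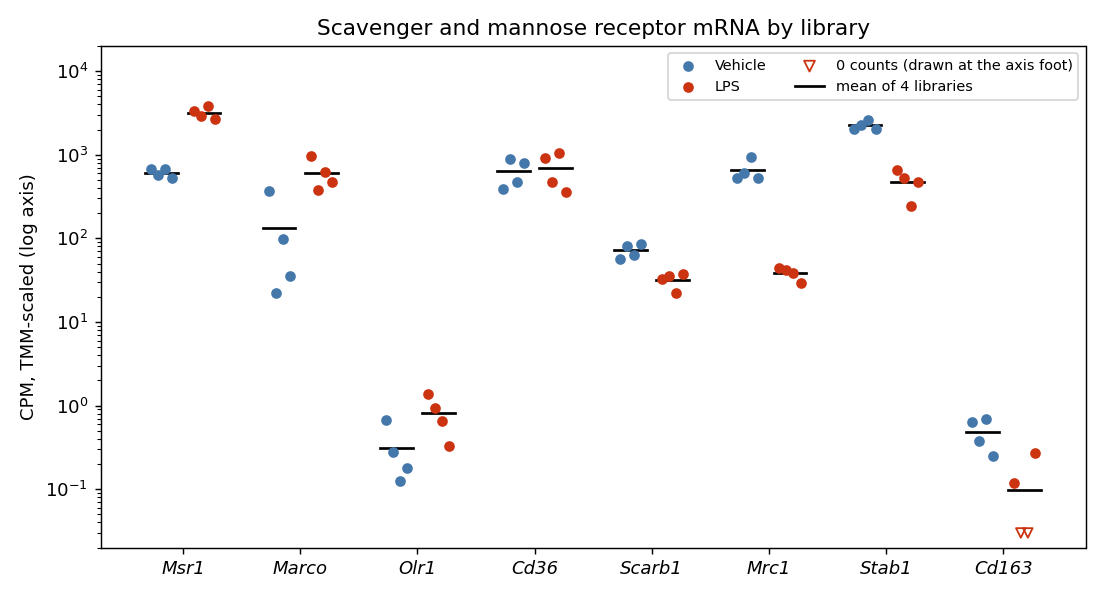
Level of each receptor mRNA in every library, as CPM (counts scaled to TMM-adjusted library size) on a log axis, with vehicle and LPS libraries as points and the mean of 4 libraries as a bar. The groups do not overlap for Msr1 and Marco (higher after LPS) or for Scarb1, Mrc1 and Stab1 (lower), whereas those of Cd36, Olr1 and Cd163 do.

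Sequences upstream of the transcription start are shown for 3 receptors that changed in opposite directions, Marco, Mrc1 and Stab1. They are the 250 bases before the start in RefSeq (GRCm38.p6), written 5′ to 3′ on the strand of the gene. RefSeq entries were matched for 6 of the 8 receptors, and those of Msr1 and Scarb1 were not. Capitals mark GAGGAAG, a binding motif of the myeloid factor PU.1, or its reverse complement.
Marco (chr1:120505025-120505274, minus strand): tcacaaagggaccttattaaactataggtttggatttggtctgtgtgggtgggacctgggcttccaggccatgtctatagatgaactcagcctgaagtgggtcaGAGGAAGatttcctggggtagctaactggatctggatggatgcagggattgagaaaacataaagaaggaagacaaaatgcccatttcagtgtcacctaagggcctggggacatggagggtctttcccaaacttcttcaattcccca
Mrc1 (chr2:14229164-14229413, plus strand): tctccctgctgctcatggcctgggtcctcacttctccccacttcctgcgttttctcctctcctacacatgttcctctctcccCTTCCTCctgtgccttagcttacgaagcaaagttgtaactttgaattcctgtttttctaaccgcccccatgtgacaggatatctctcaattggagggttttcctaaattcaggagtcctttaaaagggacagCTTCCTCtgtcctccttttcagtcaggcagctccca
Stab1 (chr14:31168642-31168891, minus strand): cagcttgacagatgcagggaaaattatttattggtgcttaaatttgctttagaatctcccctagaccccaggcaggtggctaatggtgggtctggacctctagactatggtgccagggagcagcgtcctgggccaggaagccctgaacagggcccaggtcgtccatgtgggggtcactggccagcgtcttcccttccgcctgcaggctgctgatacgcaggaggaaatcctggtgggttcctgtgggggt
The motif was found in Marco, which rose, and at 2 positions in Mrc1, which fell, and it is present in 10.6% of the 32851 upstream windows of the same length. Both strands were also searched for TGANTCA (AP-1, in 6.75% of windows), GGGA and TTCC with NN between (NF-kB, 1.21%), TTCNNNGAA (STAT, 7.02%) and AGGTCA repeated after any base (PPAR/RXR, 0.0335%). Among the 6 receptors matched, only Olr1 held any of these, an AP-1 match 60 bases before its start. These are matches of letters and not known sites. The mRNA of PU.1 itself, Spi1, was at 272 ± 28.9 CPM in vehicle and 424 ± 111 CPM after LPS (SD, n = 4), a log2 fold change of 0.64 (edgeR adjusted p = 0.0183), with overlapping groups. The call for Spi1 was lost with upper quartile normalization and without vehicle replicate 2, vehicle replicate 4 or LPS replicate 4 (edgeR adjusted p between 0.0512 and 0.065).

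Msr1 (ENSMUSG00000025044, chromosome 8 from 39581685 to 39642673 of GRCm38) was the receptor with the tightest rise. Its levels in vehicle replicates 1 to 4 were 667, 574, 684 and 525 CPM. In LPS replicates 1 to 4 they were 3294, 2884, 3877 and 2675 CPM. Every LPS library lay above every vehicle library by a wide gap, with a coefficient of variation of 12.3% among vehicle and 16.6% among LPS libraries. This was a log2 fold change of 2.38 (standard error 0.17, 95% interval 1.99 to 2.76, edgeR adjusted p = 2.87e-06). Within same-numbered libraries the log2 ratio of LPS to vehicle was 2.30, 2.33, 2.50 and 2.35, a narrow range. Counts are per gene and add up the splice forms of Msr1, which differ in the cysteine-rich domain at the end of the protein.

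Marco (ENSMUSG00000026390, chromosome 1 from 120474538 to 120505024) takes up unopsonized bacteria and particles. It had the widest spread of the more abundant receptors. Its levels in vehicle replicates 1 to 4 were 371, 22.2, 97.4 and 35.6 CPM, a 16.7-fold range. In LPS replicates 1 to 4 they were 954, 375, 615 and 471 CPM, a 2.54-fold range. The groups did not overlap, but vehicle replicate 1 nearly reached LPS replicate 2. The log2 fold change was 2.20 (standard error 0.79, 95% interval 0.43 to 3.97, edgeR adjusted p = 0.0333). Without vehicle replicate 1 it was 3.57 (edgeR adjusted p = 9.61e-04). With all libraries and the replicate number as a block it was 2.97 (edgeR adjusted p = 6.17e-04). In the fit without this block, the call was lost without vehicle replicate 2, 3 or 4 or without LPS replicate 1 or 3. There the edgeR adjusted p lay between 0.0505 and 0.0755. Within same-numbered libraries Marco rose in all 4, by log2 ratios of 1.36, 4.08, 2.66 and 3.73.

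Vehicle replicate 1 also stood above the other vehicle libraries in several inflammatory and acute phase genes. Among the 8010 genes whose log2 CPM averaged 3 or more, Marco was the 4th highest in vehicle replicate 1 relative to the mean of the other vehicle libraries, by 3.12 on the log2 scale. Saa3, an acute phase gene, was at 1543 CPM in that library against 238 to 648 CPM in the others, and Il1b, a cytokine, was at 82.2 CPM against 23.0 to 32.3 CPM. Hp, which encodes haptoglobin, was at 227 CPM against 6.77 to 25.0 CPM. Saa3 and Il1b were chosen after their values were seen. In LPS libraries Il1b was higher still, from 1924 to 5000 CPM, whereas Hp did not pass the test between groups. Their part in the Marco result was not tested.

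**Figure D2:**
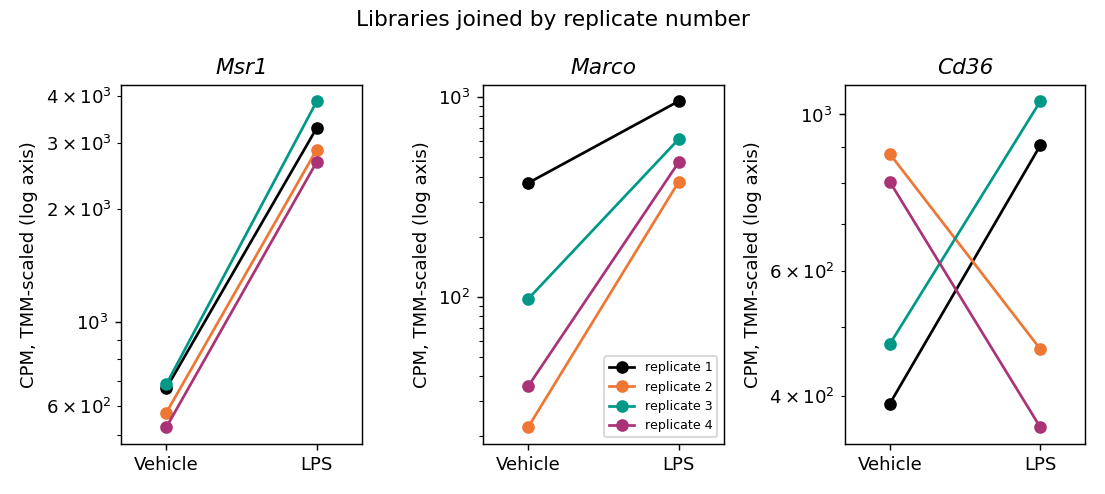
Levels of Msr1, Marco and Cd36 in CPM (log axes that differ between panels), with vehicle and LPS libraries of the same replicate number joined by a line. Msr1 and Marco rose along every line, and Cd36 rose in replicates 1 and 3 and was lower in replicates 2 and 4.

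Cd36 (ENSMUSG00000002944, chromosome 5 from 17781690 to 17888801), a receptor of fatty acids, oxidized LDL and amyloid fibrils, was abundant in both groups. Vehicle replicates 1 to 4 held 390, 880, 473 and 803 CPM, and LPS replicates 1 to 4 held 904, 466, 1044 and 361 CPM. The groups overlapped almost completely. The log2 fold change was 0.12 (standard error 0.38, edgeR adjusted p = 0.788). The 95% interval of −0.72 to 0.97 takes in both a fall and a rise, so the direction was left undecided. In replicates 1 and 3, the lowest of the vehicle group, Cd36 was higher after LPS by log2 ratios of 1.21 and 1.14. In replicates 2 and 4, the highest of the vehicle group, the log2 ratios were −0.92 and −1.15. The same replicates 1 and 3 held the highest Marco in each group. This grouping of replicates was seen in the data and not tested.

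Scarb1 (ENSMUSG00000037936, chromosome 5 from 125277087 to 125341094), the HDL receptor that takes up cholesteryl esters, was far less abundant than Cd36. Vehicle replicates 1 to 4 held 56.2, 81.9, 63.5 and 85.2 CPM. LPS replicates 1 to 4 held 32.7, 35.4, 22.0 and 38.0 CPM. All LPS libraries lay below all vehicle libraries. This gave a log2 fold change of −1.17 (standard error 0.19, 95% interval −1.60 to −0.73, edgeR adjusted p = 5.23e-04).

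Olr1 (ENSMUSG00000030162, chromosome 6 from 129485244 to 129507165), the LOX-1 receptor, was near the limit of detection. Its counts in vehicle replicates 1 to 4 were 19, 8, 4 and 5, and in LPS replicates 1 to 4 they were 23, 17, 14 and 6. The groups overlapped, although the LPS library was higher within each replicate number. The log2 fold change of 1.38 (standard error 0.59) did not pass the test (edgeR adjusted p = 0.0644). With the replicate number as a block it was 1.46 and passed (edgeR adjusted p = 0.0159), and without vehicle replicate 1 it was 2.09 and passed as well (edgeR adjusted p = 0.0136). At these counts the call depends on single libraries and on the pairing.

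Mrc1 (ENSMUSG00000026712, chromosome 2 from 14229392 to 14332057) showed the largest change of the receptors tested. Vehicle replicates 1 to 4 held 523, 602, 940 and 534 CPM. LPS replicates 1 to 4 held 44.6, 42.4, 38.8 and 29.6 CPM. The highest LPS library was far below the lowest vehicle library, and the level after LPS was 5.98% of that in vehicle. On the log2 scale the fold change was −4.07 (standard error 0.24, 95% interval −4.60 to −3.53, edgeR adjusted p = 8.73e-07).

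Stab1 (ENSMUSG00000042286, chromosome 14 from 31139013 to 31168641), a large multidomain receptor also called stabilin-1, was the most abundant receptor of vehicle-treated cells by CPM. Vehicle replicates 1 to 4 held 2039, 2255, 2637 and 2015 CPM, and LPS replicates 1 to 4 held 649, 526, 247 and 476 CPM. The groups were widely separated, and LPS replicate 3 was the lowest. The log2 fold change was −2.24 (standard error 0.27, 95% interval −2.85 to −1.63, edgeR adjusted p = 7.39e-05). Exons of Nt5dc2 on the opposite strand cover 1.09% of the exonic bases of Stab1, and no other receptor overlapped an exon of another gene.

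Cd163 (ENSMUSG00000008845, chromosome 6 from 124304656 to 124330527) was almost absent from these cells. Vehicle replicates 1 to 4 held 18, 11, 22 and 7 counts, and LPS replicates 1 to 4 held 2, 0, 0 and 5. Even a library with 0 counts could have had up to 3 expected, from counting error only. Vehicle replicate 4 and LPS replicate 4 were close to each other. The gene failed the filter on low counts. Without that filter the log2 fold change was −2.35 (edgeR adjusted p = 0.0323 over the genes then tested).

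In bulk RNA, fewer cells of a type and less RNA per cell cannot be told apart. Since Mrc1, Stab1 and Cd163 are also high in the macrophages at the borders of the brain, 10 markers of those cells were read beside them. Lyve1, a defining marker, had at most 1 count in any library. F13a1 fell from 28.2 ± 12.3 to 1.28 ± 0.592 CPM and Pf4 from 38.8 ± 18.3 to 14.04 ± 9.12 CPM (SD, n = 4, edgeR adjusted p = 1.15e-05 and 0.0177), whereas Siglec1, an interferon-inducible sialic acid receptor, rose from 600 ± 215 to 2551 ± 663 CPM (edgeR adjusted p = 1.73e-04). Cbr2 also rose, from 1.29 ± 1.19 to 6.10 ± 2.54 CPM (edgeR adjusted p = 0.00760), and Folr2 and Ms4a7 were tested and not called. Of the list, 7 genes were tested, with 2 higher and 3 lower. Over all tested genes 30.3% were higher and 33.8% lower. The summed level of the list ranged from 846 to 1700 CPM in vehicle and from 2640 to 3805 CPM after LPS. Without Siglec1 it ranged from 422 to 834 CPM in vehicle and from 511 to 958 CPM after LPS, with overlapping groups. Most of this remainder was Ms4a7, at 476 ± 139 CPM in vehicle and 719 ± 187 CPM after LPS, so it says little of the other markers. Without vehicle replicate 3 the call for Pf4 was lost (edgeR adjusted p = 0.0692). Clec10a had 47, 64, 406 and 34 counts in vehicle replicates 1 to 4 and 0 in every LPS library, so it was at least 27.8-fold lower after LPS (against 3 counts per library), or at least 10.5-fold lower without vehicle replicate 3. Vehicle replicate 3, with the highest Clec10a, also held the highest Mrc1 and Stab1, and without it the log2 fold change of Mrc1 was −3.77. The part of these cells in the result was not tested.

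The 10 microglial markers summed to 8631 to 9993 CPM in vehicle and to 2833 to 3276 CPM after LPS, and none was absent, though Tmem119 reached only 9.39 ± 4.89 CPM in vehicle (SD, n = 4). Of markers of other cells, Cldn5, S100a9 and Mpo had 0 counts in every library. Such zeros cannot tell a gene that was not expressed from one that was not counted. Summed levels in vehicle and LPS libraries were 19.99 to 46.8 and 41.0 to 123 CPM for astrocyte, 92.8 to 146 and 17.6 to 23.4 CPM for oligodendrocyte-lineage, and 31.04 to 73.4 and 163 to 254 CPM for endothelial markers. The endothelial sum came from Flt1, Pecam1 and Cdh5, all called higher. Cldn5, Tek and Esam of that list had at most 3 counts in every library. The astrocyte sum was carried by Gja1 after LPS, and without this gene it was 19.3 to 45.8 CPM in vehicle and 10.2 to 25.3 CPM after LPS. The sums were 0.496 to 4.31 and 5.30 to 21.4 CPM for fibroblast (0.461 to 4.15 and 0.595 to 1.96 CPM without Dcn) and 6.46 to 19.0 and 2.42 to 9.33 CPM for neuronal markers. The neutrophil list went from 0.0691 to 0.769 CPM in vehicle to 571 to 1172 CPM after LPS, through S100a8 alone, since its other 4 genes had at most 3 counts in every library. The part of these cells in the receptor results was not tested. Library totals ranged from 20071921 to 30604447 counts.

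To compare the receptors with each other, CPM was divided by the exonic length in kilobases (CPM per kb). In vehicle the order was Stab1 at 217 ± 28, Cd36 at 177 ± 67.2, Mrc1 at 102 ± 30.9, Msr1 at 96.6 ± 11.9, Marco at 68.3 ± 84.7 and Scarb1 at 8.44 ± 1.66 CPM per kb (SD, n = 4). Stab1 and Cd36 differed by less than the spread of Cd36, Mrc1 and Msr1 by less than the spread of either, and Marco from Msr1 and from Scarb1 by less than its own spread. Cd163 at 0.0895 ± 0.0385 and Olr1 at 0.0871 ± 0.0682 CPM per kb lay far below and could not be ordered. After LPS the order was Msr1 at 502 ± 83.5, Marco at 314 ± 132, Cd36 at 193 ± 92.4, Stab1 at 46.1 ± 16.4, Mrc1 at 6.10 ± 1.04, Scarb1 at 3.77 ± 0.825, Olr1 at 0.229 ± 0.125 and Cd163 at 0.0179 ± 0.0235 CPM per kb. Marco and Cd36 differed by less than the spread of Marco, whereas the other neighbours in this order were apart by more than either SD.

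The make-up of the receptor pool turned over. Of the summed CPM per kb of the 8 receptors, Stab1, Cd36 and Mrc1 held 32.4% ± 3.27, 26.9% ± 11.2 and 15.1% ± 4.04 in vehicle (SD, n = 4). After LPS they held 4.58% ± 1.87, 17.4% ± 4.69 and 0.591% ± 0.137. Msr1 went from 14.4% ± 1.03 to 48.2% ± 6.67 and Marco from 9.93% ± 12.1 to 28.8% ± 6.05. In vehicle replicate 1 the share of Marco was 27.8%, within the range of the LPS libraries (23.2% to 36.9%). The sum itself was 670 ± 39.2 CPM per kb in vehicle and 1065 ± 271 after LPS.

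**Figure D3:**
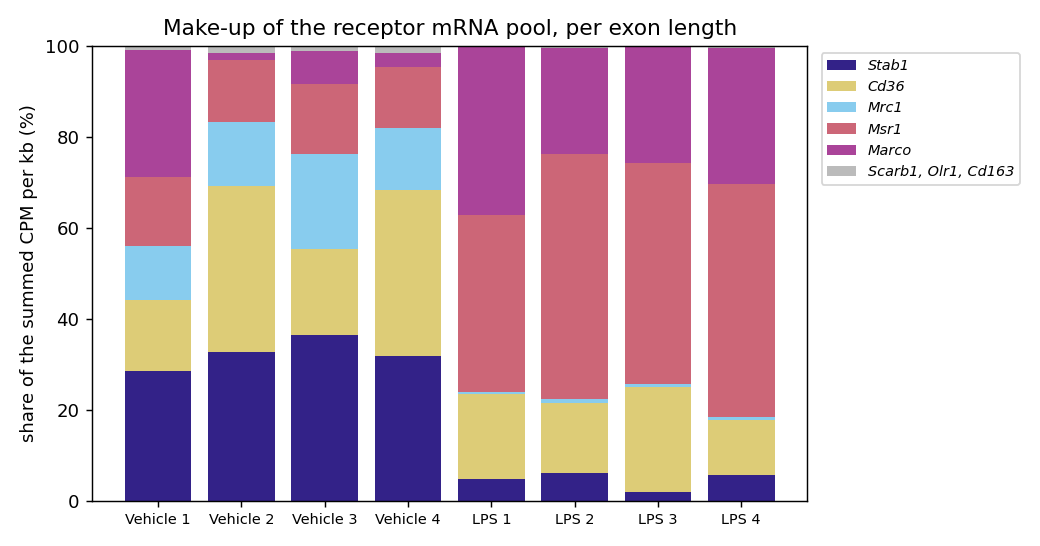
Share (%) of each receptor in the summed CPM per kb of the 8 receptor mRNAs, 1 bar per library. Msr1 and Marco fill most of each LPS bar, and Stab1, Cd36 and Mrc1 most of each vehicle bar.

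Pairs of receptors were also set against each other within libraries, as a log2 ratio of counts, which needs no scaling between libraries. Msr1 and Marco share a class, as do Cd36 and Scarb1, whereas Mrc1 and Cd163 go together only as macrophage markers. Differences between groups were tested by a two-sided exact permutation test over the 70 divisions of 8 libraries, which allows no p under 0.0286, for 3 pairs. The ratio of Msr1 to Marco was 3.06 ± 1.66 in vehicle and 2.47 ± 0.491 after LPS (SD, n = 4, exact permutation p = 0.486, adjusted over the 3 pairs 0.486). The ratio of Cd36 to Scarb1 was 3.09 ± 0.293 in vehicle and 4.33 ± 1.05 after LPS, a difference of 1.24 that did not pass (exact permutation p = 0.0571, adjusted 0.171). That of Mrc1 to Cd163 was 10.39 ± 0.549 and 9.04 ± 1.97 (exact permutation p = 0.314, adjusted 0.471) and rests on the few counts of Cd163. Adjusted over 3 pairs, a single changed pair cannot reach a p below 0.0857 in this design, so none of them could pass alone. In replicates 1 to 4 the ratio of Cd36 to Scarb1 was 2.79, 3.42, 2.90 and 3.24 in vehicle. After LPS it was 4.79, 3.72, 5.57 and 3.25, so it was nearly unchanged in replicate 4.

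Other scavenger and mannose-family receptors moved in both directions. Of a list of 21, 14 were tested, of which 4 were higher and 7 lower (over all tested genes 30.3% were higher and 33.8% lower), with a median log2 fold change of −0.94 against −0.11 over all tested genes. Cd5l, a secreted scavenger protein of macrophages, fell from 9.07 ± 4.53 to 0.149 ± 0.0961 CPM (SD, n = 4, edgeR adjusted p = 1.10e-05). Lrp1, a large endocytic receptor of lipoproteins, fell from 2170 ± 409 to 646 ± 73.3 CPM (edgeR adjusted p = 1.97e-05). Pla2r1, a relative of Mrc1, rose from 1.89 ± 0.607 to 6.60 ± 3.19 CPM (edgeR adjusted p = 0.00225). The lysosomal relatives Cd68 and Scarb2 fell, with log2 fold changes of −1.14 and −1.04 (edgeR adjusted p = 3.19e-05 and 2.16e-04). Stab2, the paralog of Stab1, held 23, 35, 87 and 35 counts in vehicle and at most 2 in an LPS library, at least 9.32-fold lower against 3 counts per library (edgeR adjusted p = 2.69e-04). Cd5l, Stab2 and Scarf1, all called lower, passed the filter on low counts through vehicle. Ly75, called higher, passed it through the LPS group. The calls of these genes are thus partly set by the filter. Where 10 counts were required of every library, 3 genes of the list were higher and 4 lower. Cxcl16, a chemokine that doubles as a receptor of oxidized lipid, had a log2 fold change of −0.28 (edgeR adjusted p = 0.142), and Zmynd15 on the opposite strand covers 18.3% of its exonic bases. Mrc2 had 4 to 12 counts in every library and was not tested.

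**Figure D4:**
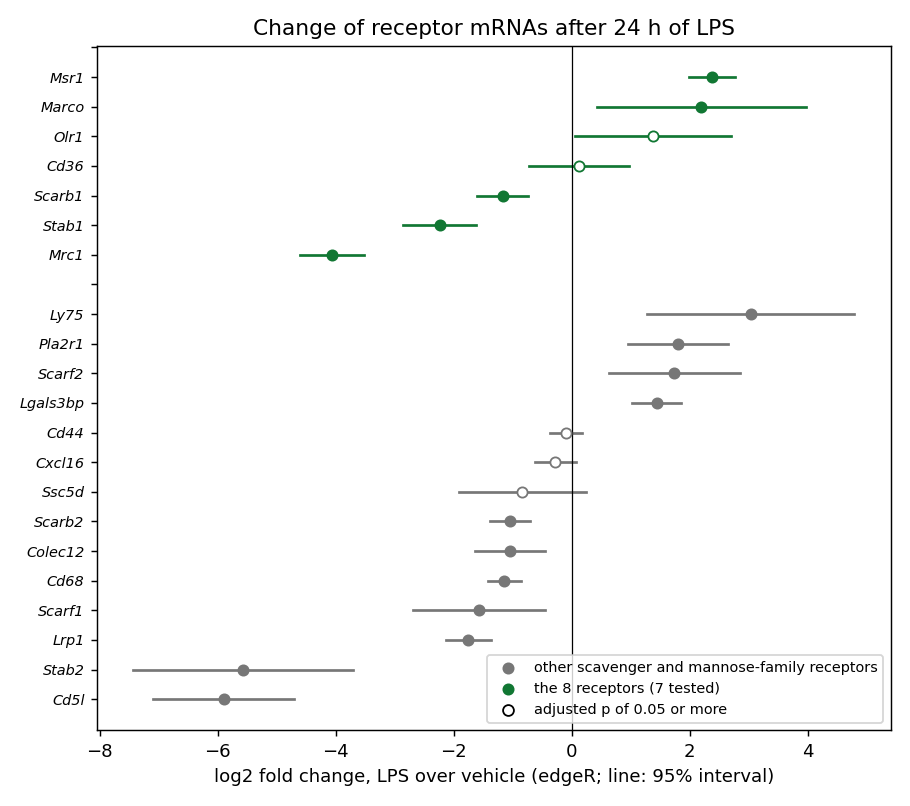
Log2 fold change of LPS over vehicle with its 95% interval (edgeR) for the 7 receptors tested (green) and 14 other scavenger and mannose-family receptors (grey), with open points where the adjusted p was 0.05 or more. Mrc1 lies at −4.07 and Msr1 at 2.38, and 7 of the 14 other receptors were lower.

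Genes that handle the cargo of these receptors changed in both directions, in lists read against the 64.1% of all tested genes that were called. Of 14 genes of lipid handling, all tested, 4 were higher and 5 lower (median log2 fold change −0.55). Lpl, a lipase that frees fatty acids from lipoproteins, fell from 4428 ± 1156 to 88.2 ± 26.4 CPM (SD, n = 4, edgeR adjusted p = 6.49e-07). Lipa and Nceh1, which hydrolyse cholesteryl esters in the lysosome and outside it, fell by 2.50 and 2.74 on the log2 scale (edgeR adjusted p = 1.39e-05 and 3.32e-05). Of 8 tested genes of haem handling, 3 were higher and 2 lower (median 0.36). Only 1 was lower with DESeq2, with the replicate block or with any single library left out. Hmox1, which breaks down haem, rose from 494 ± 165 to 3098 ± 690 CPM and Fth1, the ferritin heavy chain, from 3350 ± 1379 to 30260 ± 2930 CPM (edgeR adjusted p = 1.81e-05 and 1.68e-05). Slc40a1, the iron exporter ferroportin, fell from 190 ± 64.9 to 17.7 ± 5.31 CPM (edgeR adjusted p = 1.14e-05). Haptoglobin, which carries haemoglobin to Cd163, did not pass (Hp, log2 fold change 0.36, edgeR adjusted p = 0.779). With the replicate block the log2 fold change of Hp was 1.44 (edgeR adjusted p = 0.0235), and without vehicle replicate 1 it was 2.72 (edgeR adjusted p = 0.0155).

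Partners and transcription factors of the receptors were read from fixed lists. All 11 tested partners and sheddases were called, 4 higher and 7 lower (median −1.004), against 64.1% of all tested genes. When single libraries were left out 10 or 11 were called, and 10 with the replicate block. Lyn and Syk, kinases that signal from Cd36 and related receptors, rose by log2 fold changes of 2.36 and 2.40 (edgeR adjusted p = 1.49e-06 and 1.28e-05), whereas Fyn, another such kinase, fell by 1.14 (edgeR adjusted p = 4.30e-04). The toll-like receptors Tlr2 and Tlr4, which act with Cd36 and Msr1, fell by 3.05 and 1.17 on the log2 scale (edgeR adjusted p = 4.39e-06 and 0.00487), and Tlr6, which also pairs with Cd36, rose by 1.34 (edgeR adjusted p = 2.36e-06). Of 14 transcription factors, 7 were higher and 5 lower (median 0.33), and 4 were higher with upper quartile normalization and without vehicle replicate 2, vehicle replicate 4 or LPS replicate 4. Pparg, a lipid-activated factor known to drive Cd36 in macrophages, fell from 23.2 ± 10.1 to 0.479 ± 0.207 CPM (SD, n = 4, edgeR adjusted p = 5.66e-06), beside a Cd36 level that did not pass the test. Pparg and Irf4, which was also called lower, passed the filter on low counts through vehicle, so their calls are partly set by the filter. Where 10 counts were required of every library, 6 factors were higher and 3 lower. Cebpb rose by 2.22 on the log2 scale (edgeR adjusted p = 3.29e-04), of whose exonic bases 20.7% are overlapped by Tmem189 on the opposite strand. Nfe2l2, the oxidative stress factor Nrf2, fell by 0.65 on the log2 scale (edgeR adjusted p = 0.00123).

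The genes with the most similar profile over the 8 libraries were found among 8010 genes, by the root mean square difference of log2 CPM after each gene was centred on its mean. Those nearest to Msr1 were Milr1 and Jmjd6, with differences of 0.11 and 0.13. Those nearest to Mrc1 were Tbc1d8 and Cd93 (0.19 and 0.24), to Stab1 Rai1 and Scamp5 (0.16 and 0.20) and to Scarb1 Nolc1 and Nop58 (0.10 and 0.12). The nearest to Marco, Mmp14 and Arg2, differed by 0.52 and 0.64, the nearest to Cd36, Stap1 and Srsf3, by 0.35 and 0.35, and the nearest to Olr1, Slc25a37 and Clec4d, by 0.45 and 0.49. The profiles of Marco, Cd36 and Olr1 thus had no close match. The measure follows the change between groups above all, and says nothing of shared control.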

How the data were processed

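RNA of primary murine microglia treated with vehicle or LPS (4 libraries each) was sequenced in single-end reads. The paper's methods name a TruSeq v2 kit and a HiSeq, and the labels a stranded TruSeq kit and a NovaSeq. The authors filtered reads with HTSeqGenie, aligned them to GRCm38 with GSNAP and deposited raw counts of uniquely aligned reads per Ensembl gene. Annotation release and use of strand are not given in the sources used here. Reads shared with near-identical copies were not counted, which can lower genes with pseudogenes such as Fth1. Of windows of 50 bases of the receptor transcripts, at most 0.690% (Stab1) occur in another gene.

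Symbols, positions and exonic lengths came from GENCODE vM21 (GRCm38), matched by Ensembl identifier for 52489 of 52636 genes. All 8 columns were used. Counts were tested with edgeR 4.0.16 in R 4.3.3 (TMM, filterByExpr at min.count 10 and min.total.count 15, quasi-likelihood test, two-sided, Benjamini-Hochberg over 13847 genes). CPM are counts scaled to the TMM-adjusted library size. Standard errors are the log2 fold change over the square root of F. Ratios used a pseudocount of 0.5 and exact permutation (scipy 1.17.1, Python 3.11.15). Figures were drawn with matplotlib 3.10.9. The fit was tested on simulated data.

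Alternatives were DESeq2 1.42.0, DESeq2 size factors, upper quartile normalization, no filter, at least 10 counts in every library, a stricter adjusted p (0.01), log2 changes of 1 or more, a replicate block and leaving out each library. Those for Spi1, Fyn, Tlr6, Siglec1, Pf4 and F13a1, and the sums or bounds without 1 gene or library, were chosen after seeing the data. The receptors and lists were chosen with earlier results of these data known. Named genes are all 8 receptors, the 3 largest called changes of each list among genes averaging a log2 CPM of 1 or more, and Hp, Hmox1, Pparg, Nfe2l2, Cd68, Scarb2, Stab2, Mrc2, Cxcl16 and Tlr4 as background. The result of 1 gene that this rule names is not reported here. Spi1, Fyn, Tlr6, Saa3, Il1b and the cell type markers named were added after their values were seen, the markers out of fixed lists.

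Neither the labels nor the methods say that same-numbered libraries share a culture. Once group means were removed, the vehicle and LPS libraries of a replicate number were correlated over 8010 genes (r = 0.373 for replicate 1, 0.196 for 2, 0.171 for 3, 0.108 for 4). Each r exceeds 0.1, so the replicate number was read as a possible pairing. The main fit has the group only, and its p-values ignore this pairing. Blocked values are given for Marco and where they change a call. Exchanged pairs of replicates 2 and 4 gave 0.146 and 0.137, above the r of replicate 4 itself. For replicates 2 and 4 the pairing is thus uncertain.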

Additional observations from a re-analysis of the deposited data

Results flagged for a closer look

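No receptor level was flagged. Of 38 groups of 4 libraries examined for a library far from the others, with about 1 in 20 flagged by chance, 2 were flagged, both in summed marker lists of other cell types. The astrocyte markers summed to 123 CPM in LPS replicate 1 against 41.0 to 48.8 CPM in the other LPS libraries. Gja1 alone was at 98.1 CPM in that library. The fibroblast markers summed to 21.4 CPM in LPS replicate 3 against 5.30 to 7.51 CPM in the other LPS libraries, and Dcn alone was at 19.4 CPM in it.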

How the results depend on the processing

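Msr1, Scarb1, Mrc1 and Stab1 kept their direction and their call under every alternative run. Between 4 and 7 receptors were called when single libraries were left out, and 6 with DESeq2, with no filter and with the replicate block. The log2 fold change of Marco ranged from 1.88 to 3.57 and that of Olr1 from 1.03 to 2.09 when single libraries were left out. Olr1 also passed with DESeq2 (adjusted p = 0.0490) and without LPS replicate 4 (edgeR adjusted p = 0.0380). Cd163 passed without any filter, without vehicle replicate 4 and without LPS replicate 4, but not without LPS replicate 1, 2 or 3, with log2 fold changes from −3.59 to −1.87. The sign of Cd36, never called, turned with upper quartile normalization (−0.046) and ranged from −0.14 to 0.35 when libraries were left out. Upper quartile normalization moved the median of all genes by −0.156 and made Cxcl16 pass (−0.43, edgeR adjusted p = 0.0173). Without LPS replicate 1 the log2 fold change of Hp was −0.58, and it reached 2.72 without vehicle replicate 1. DESeq2 gave no adjusted p for Hp. A minimum log2 change of 1 left 5222 of 8877 called genes. Where 10 counts were required of every library, 7 other scavenger receptors and 2 IL-4-type markers were called. The ratio of Mrc1 to Cd163 fell by 2.76 with a pseudocount of 3 (exact permutation p = 0.0286). With the replicate block 9044 genes were called, and of the named genes only Olr1 and Hp changed their call. With sign flips within the 4 pairs, which allow no p under 0.125, the exact permutation p of the ratios was 0.375, 0.125 and 0.5. When libraries were left out the ratio differences ranged from −1.32 to −0.041 for Msr1 to Marco, from 0.83 to 1.60 for Cd36 to Scarb1 and from −1.90 to −0.55 for Mrc1 to Cd163. Depth limits Cd163 and Olr1, which had at most 23 counts in a library.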

Other observations

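Mrc1 is often read together with other genes that IL-4 induces in macrophages, and these moved in both directions. Of 10 such genes 6 were tested, with 4 higher and 2 lower after LPS. Over all tested genes 30.3% were higher and 33.8% lower. Arg1 and Ccl22 passed the filter on low counts through the LPS group. Clec10a and Ccl24, the 2 called lower, passed it through vehicle. The calls of these genes are thus partly set by the filter. Where 10 counts were required of every library, only 2 were called, Il4ra and Tgm2, both higher. Arg1, the arginase that IL-4 induces in mouse macrophages, had 7, 2, 2 and 2 counts in vehicle replicates 1 to 4 and 3049, 1789, 7440 and 915 counts in LPS replicates 1 to 4 (edgeR adjusted p = 5.50e-06). Il4ra, the receptor chain of IL-4, rose from 154 ± 45.6 to 1875 ± 620 CPM (SD, n = 4, edgeR adjusted p = 8.35e-06). Clec10a, a galactose-type lectin, was lower (edgeR adjusted p = 0.00314) and had 0 counts in every LPS library. Retnla and Chil3 had 0 counts in every library, which cannot tell lack of expression from a gene that was not counted.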
